A study of Homo sapiens with 3 samples.

Results

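VLDLR, the very low density lipoprotein receptor, and MYLIP, the ubiquitin ligase also known as IDOL that marks this receptor for degradation, were followed across 3 RNA sequencing libraries of PLC cells, a human liver cancer line. Both genes were chosen by their estimated counts in these same libraries, which are therefore given as a description. They are 2 of the 12034 gene symbols that had a RefSeq row of their own in the deposited table. The libraries were NTC, taken as the control, shHKDC1, in which HKDC1 was knocked down, and shRBBP5, in which RBBP5 was knocked down, and the study used them to see what HKDC1 and RBBP5 do to gene expression. The cells were grown in DMEM with fetal bovine serum, and the labels name no hairpin sequence, clone or time after knockdown. Each group was 1 library with 0 replicates, so no difference below has a replicate check and no test between groups was made.

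VLDLR belongs to a family of cell-surface lipoprotein receptors, which bind apolipoprotein E-rich particles and carry them into endosomes. It is best known from heart, muscle, fat and brain, where it takes up triglyceride-rich lipoproteins and also binds reelin, and its level in normal liver is low. MYLIP is a RING-type ubiquitin ligase with a FERM domain that recognises the cytoplasmic tails of VLDLR and related receptors such as LRP8 and sends them to lysosomes. Its gene is a known target of the sterol-sensing nuclear receptors LXR. These RNA data do not measure the receptor protein on which MYLIP acts.

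The table gives VLDLR as 4 transcript rows, 2 of which, NM_001322225 and NM_001322226, were at 0 in every library. The other two are NM_003383 and NM_001018056. GENCODE v29 pairs them with a 19-exon transcript of 9163 bases and an 18-exon transcript of 3240 bases. The shorter one ends 5573 bases earlier and also skips exon 16. That exon has 84 bases, or 28 codons with 0 bases left over, and encodes the O-linked sugar region next to the membrane. It is shown as the coding difference between the rows described separately, and it lies at chr9:2651415-2651498 on the plus strand of GRCh38, inside the coding sequence.
VLDLR exon 16: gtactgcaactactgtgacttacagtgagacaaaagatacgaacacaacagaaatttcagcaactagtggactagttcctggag
MYLIP had 1 row, NM_013262, out of 2 curated RefSeq transcripts, so its values cover part of the gene only. Whether more reads of either gene lay in an anonymous assembled locus was not tested. Such loci held 99.4% to 99.6% of all units.

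The 250 bases before each gene start, from RefSeq on GRCh38.p14, are shown because both genes were higher in shHKDC1 than in NTC. Promoters matched for 2 of 2 genes, at chr9:2621537-2621786 for VLDLR and chr6:16128836-16129085 for MYLIP, both on the plus strand. Capitals mark matches, on either strand, to 7 motifs. The GC box was searched as GGGCGG. The inverted or direct CCAAT box was searched by its name letters. The hypoxia response core was searched in its form GCGTG and separately in the form ACGTG, which is also contained in the E-box. The E-box was searched as CACGTG. The half-site of nuclear receptors was searched as AGGTCA. The last of the motifs, the TATA box, was searched as TATAAA. Only GC boxes, CCAAT boxes and the core GCGTG were found in these windows.
VLDLR promoter: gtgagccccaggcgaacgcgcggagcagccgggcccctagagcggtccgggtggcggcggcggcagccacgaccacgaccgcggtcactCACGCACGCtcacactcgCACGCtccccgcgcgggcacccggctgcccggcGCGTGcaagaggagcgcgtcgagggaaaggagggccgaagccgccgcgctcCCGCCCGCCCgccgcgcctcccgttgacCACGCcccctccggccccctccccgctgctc
MYLIP promoter: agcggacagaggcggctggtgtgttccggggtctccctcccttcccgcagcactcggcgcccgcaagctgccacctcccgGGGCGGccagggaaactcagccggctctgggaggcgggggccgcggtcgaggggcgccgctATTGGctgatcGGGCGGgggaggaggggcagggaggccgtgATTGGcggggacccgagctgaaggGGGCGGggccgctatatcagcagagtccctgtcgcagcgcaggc
VLDLR held 5 matches to GCGTG, of which the first pair share a base, and 0.476% of 35116 promoter windows of the same length held as many or more, while 32.2% held at least 1. MYLIP held 0 of these. MYLIP held 2 CCAAT boxes, a number reached by 9.53% of windows, and VLDLR held 0. GC boxes stood in both windows, 2 overlapping ones in VLDLR and 3 in MYLIP, against 42.6% of windows with at least 1. The GC content was 78.8% in VLDLR and 73.6% in MYLIP, against a median of 58% over all windows, and this was not matched in the shares. AGGTCA was in neither window, and such a match, or its lack, describes these letters alone.

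Units here are the estimated counts of the table, and they summed to 161750310 for NTC, to 115556160 for shHKDC1 and to 154533913 for shRBBP5. A value of 4 units was more frequent than 3 or 5 in every library, so 4 units were assumed to be 1 sequenced fragment. On that assumption the depth was smallest in shHKDC1, at 28889040 fragments. Neither HKDC1 nor RBBP5 had its own row, and the knockdowns themselves were not checked. Of 16 hepatocyte and liver cancer markers only the fibrinogen chain FGB had a row, at 2.41 CPM for NTC, 0.600 for shHKDC1 and 2.30 for shRBBP5. The label of a liver cell could therefore be checked on 1 marker. The leukocyte genes PTPRC and CD3E were at 0 units in all 3 libraries.

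The NTC library held 545 units of VLDLR, the shHKDC1 library 1890 and the shRBBP5 library 307. After TMM scaling of the libraries these were 3.11 CPM [2.60 to 3.67] for NTC, 18.3 CPM [16.7 to 20] for shHKDC1 and 1.92 CPM [1.52 to 2.41] for shRBBP5. CPM scales units to library size, and brackets hold exact 95% Poisson intervals on fragments. The shHKDC1 library stood far above the others, NTC was next and shRBBP5 was lowest, and none of the 3 intervals overlapped. All intervals in this text cover counting error only, and duplicate reads of a molecule, which carried no molecular identifier, would make them too narrow. In bulk RNA, fewer cells expressing a gene and less of its RNA per cell cannot be told apart.

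MYLIP had 246 units for NTC, 314 for shHKDC1 and 383 for shRBBP5. These were 1.40 CPM [1.09 to 1.81], 3.04 CPM [2.39 to 3.77] and 2.40 CPM [1.95 to 2.94]. NTC was lowest and both knockdown libraries lay above it without overlap. The 2 knockdown libraries overlapped each other, so their order was not resolved at this depth.

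**Figure D1:**
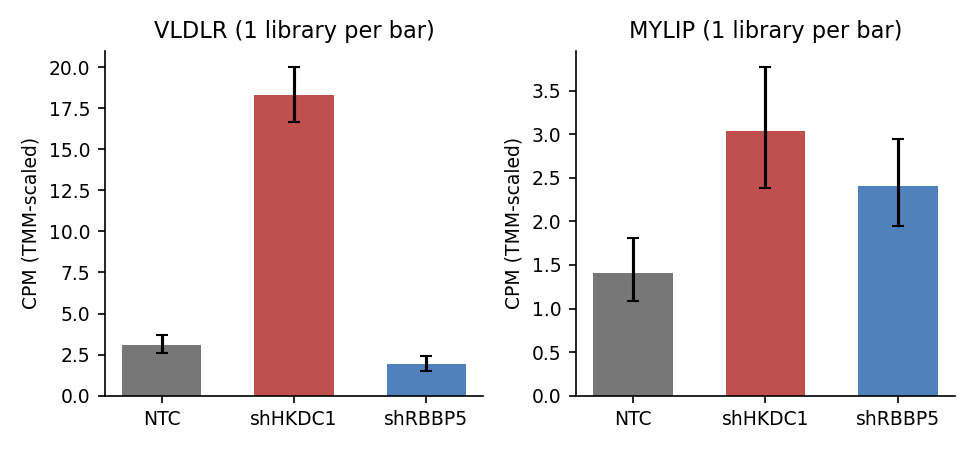
TMM-scaled CPM of VLDLR (left) and MYLIP (right) in the NTC, shHKDC1 and shRBBP5 libraries, with 1 library per bar and error bars giving the exact 95% Poisson interval on fragments. VLDLR stands at 18.3 CPM in shHKDC1 against 3.11 in NTC and 1.92 in shRBBP5, while MYLIP is at 1.40 CPM in NTC and above that in both knockdown libraries.

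As ratios, VLDLR was 5.88-fold higher in shHKDC1 than in NTC, and MYLIP was 2.16-fold higher (log2 1.11 [0.59 to 1.60]). A gene was called higher or lower here when its log2 ratio, with a pseudocount of 0.5 units, reached 1 in either direction with an exact 95% Clopper-Pearson interval that left out 0. By this rule 2 of 2 genes were called higher in shHKDC1. Of the 1015 genes with a row for each RefSeq transcript (fully named genes) and a mean of at least 1 CPM, 8.37% were called higher and 23.1% lower. Of the 74 such genes with rows for only some transcripts (partly named genes), MYLIP among them, 5.41% were called higher and 28.4% lower. Nothing is read from these shares, because the genes were listed for this contrast. With total-count scaling the log2 ratio of VLDLR was 2.28 and that of MYLIP 0.84, short of the call. Over the same 1015 genes, that scaling moved the median from −0.39 to −0.66 and the calls from 85 higher and 234 lower (26.6% higher) to 61 and 339 (15.25% higher).

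Among 912 other fully named protein-coding genes, 16 had a larger log2 ratio in shHKDC1 over NTC than VLDLR. The nearest above was the clock repressor BHLHE41 at 2.67 and the nearest below was NT5E, an adenosine-producing ectoenzyme, at 2.48. MYLIP had 69 genes above it out of 913, between IGDCC3 at 1.12 and FAAH2, a fatty acid amide hydrolase, at 1.10. VLDLR lay near the top of this ranking and MYLIP close to the edge of the 2-fold rule. Both genes were chosen by these same counts, so their ranks are a description only. The ranked genes had to reach a mean of 1 CPM, which a high level in shHKDC1 alone can give. BHLHE41, for example, was at 0.417 CPM for NTC, 2.66 for shHKDC1 and 0.627 for shRBBP5.

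Some markers of other cell types were also higher in shHKDC1. The cholangiocyte list had a row for 1 of its 3 genes, KRT7, at 0.177 CPM for NTC, 1.88 for shHKDC1 and 0.150 for shRBBP5. The endothelial list had rows for 4 of 4 genes, with summed levels of 0.137, 0.765 and 0.163 CPM, of which VWF made up 0.707 CPM in shHKDC1. PECAM1 was at 0.0387 CPM there against 0.0685 CPM in NTC and CDH5 at 0.0194 against 0.0514 CPM, all at 3 fragments or fewer, and KDR was at 0 throughout. The fibroblast or stellate list had rows for 5 of 6 genes, with sums of 0.845, 1.62 and 1.77 CPM, most of it PDGFRB, so that its sum was highest where VLDLR was lowest. COL3A1 was at 0.240, 0.0581 and 0.163 CPM, and COL1A2 at 0 throughout. The part of these in the VLDLR and MYLIP values was not tested, nor was that of the lower depth of shHKDC1.

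In shRBBP5 the genes lay on opposite sides of NTC. VLDLR was 1.62-fold lower (log2 −0.69 [−1.11 to −0.27]) and MYLIP 1.71-fold higher (log2 0.77 [0.29 to 1.25]). Both intervals excluded 0 but neither ratio reached 2-fold, so 0 of 2 were called. Of fully named genes 2.27% were called higher and 8.67% lower, and of partly named genes 0.00% and 8.11%. The VLDLR sum joins rows of unlike transcript length, and their mix differed between libraries, as given below. No VLDLR ratio in this text was corrected for length. The size of the VLDLR difference, and its call in shRBBP5, therefore hold for summed units only. The shHKDC1 and shRBBP5 ratios share the NTC library, so they are given side by side and no agreement between them is drawn. Compared directly, shHKDC1 exceeded shRBBP5 9.49-fold for VLDLR (log2 3.25 [2.89 to 3.61]), where 11.4% of fully named genes were called higher and 17.4% lower, and 5.41% and 27.0% of partly named genes. For MYLIP the difference was not resolved (log2 0.34 [−0.12 to 0.77]), and the interval leaves room for a ratio of up to 0.77 on the log2 scale.

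**Figure D2:**
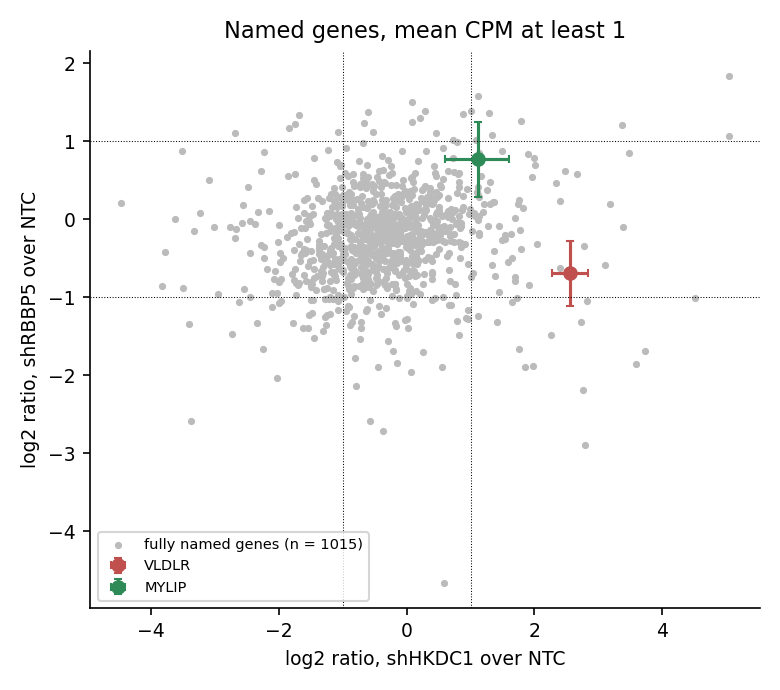
log2 ratios of shHKDC1 over NTC (x axis) and shRBBP5 over NTC (y axis) for 1015 fully named genes (grey), VLDLR (red) and MYLIP (green), with 95% counting intervals on the 2 genes and dotted lines at the 2-fold limits; both axes share the NTC library. VLDLR lies at 2.56 and −0.69 and MYLIP at 1.11 and 0.77, inside the limits on the y axis in both cases.

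The number of VLDLR units per MYLIP unit within a library does not depend on library scaling. It was 2.22 [1.61 to 3.01] in NTC, 6.02 [4.75 to 7.79] in shHKDC1 and 0.802 [0.586 to 1.09] in shRBBP5. VLDLR units per MYLIP unit were thus highest in shHKDC1, while in shRBBP5 the interval included equal units. Units grow with transcript length, so the ratio compares libraries and not molecules of the 2 genes. The mix of VLDLR rows, which differ in length, also differed between libraries, as given below, and the ratio was not corrected for it. It was 2.72 times [1.84 to 4.12] as large in shHKDC1 as in NTC, and 0.362 times [0.234 to 0.571] as large in shRBBP5 as in NTC. Such a ratio shows, beyond counting error, an unequal difference in units between libraries and not which gene moved.

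The separate VLDLR rows differed in their pattern. NM_003383, which holds exon 16, had 196 units for NTC, 978 for shHKDC1 and 295 for shRBBP5, or 1.12, 9.47 and 1.85 CPM. NM_001018056, which lacks it, had 349, 912 and 12 units, or 1.99, 8.83 and 0.0752 CPM. Both rows were highest in shHKDC1, with log2 ratios over NTC of 3.08 [2.63 to 3.55] with the exon and 2.15 [1.79 to 2.53] without it. In shRBBP5 they went opposite ways against NTC, at 0.72 [0.19 to 1.28] with the exon and −4.67 [−7.03 to −3.13] without it, the latter on 3 fragments. In the units assigned to each row, the VLDLR sum was thus lower in shRBBP5 through the row without exon 16, while the row with it was higher. Reads shared by the rows were divided by the authors' software. The part of that division in these opposite differences was not tested. The GENCODE transcripts paired with the rows also differ by 5573 bases at their ends, and reads of exon 16 were not counted on their own. Whether skipping of exon 16 differed between the libraries was therefore not tested.

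**Figure D3:**
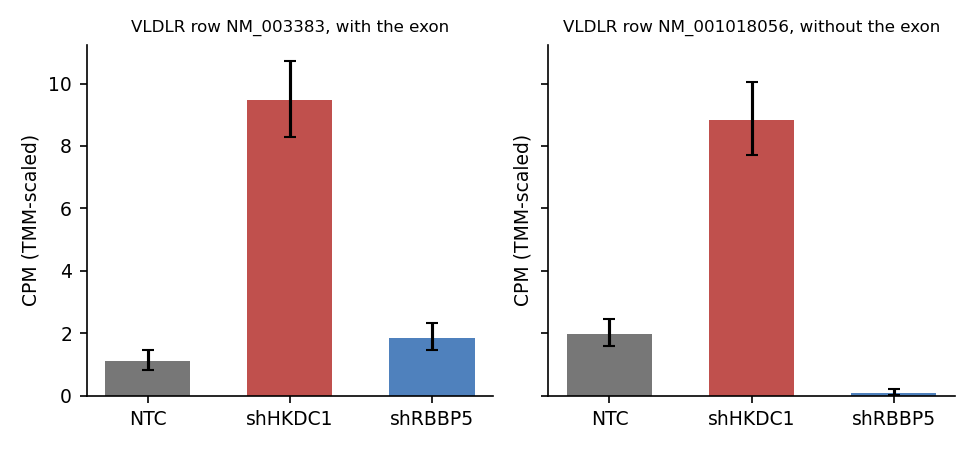
TMM-scaled CPM of the VLDLR rows NM_003383 (left, with exon 16) and NM_001018056 (right, without it) in the 3 libraries, on a shared axis with exact 95% Poisson intervals on fragments. Both are near 9 CPM in shHKDC1, and in shRBBP5 the first is at 1.85 CPM and the second at 0.0752 CPM.

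As a share of VLDLR units, the row without exon 16 held 64.0% [55.3 to 72.0] in NTC, 48.3% [43.7 to 52.9] in shHKDC1 and 3.91% [0.811 to 11] in shRBBP5 (exact Clopper-Pearson intervals on fragments). These intervals leave out the error of dividing shared reads between transcripts. Only reads that touch exon 16 or another difference between the transcripts can tell the rows apart, and the rest were divided by the authors' software. Large shifts of this kind were common in the table. Among 400 fully named genes with at least 2 RefSeq rows and at least 200 units in every library, the row most abundant in NTC changed its share by a median of 13.0 percentage points in shRBBP5. A change of at least 50 points was seen in 14.0% of them, and VLDLR, at 60.1 points, ranked 40 of 400. In shHKDC1 the VLDLR shift was 15.8 points against a median of 22.0, and 24.8% of genes passed 50 points. Picking each row for its height in NTC favours falls in the other libraries. The VLDLR shift in shRBBP5 was thus larger than that of most genes, and 39 genes had a larger one.

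**Figure D4:**
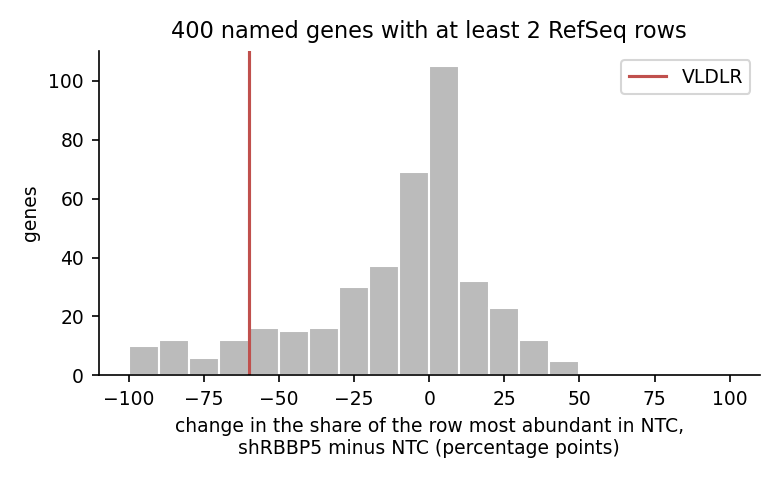
Histogram of the change, shRBBP5 minus NTC in percentage points, in the share of a gene's units on the RefSeq row most abundant in NTC, for 400 named genes; the y axis counts genes. VLDLR (red line) is at −60.1 points, in the left tail that 39 other genes exceed in size.

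VLDLR-AS1, a noncoding RNA that RefSeq places on the opposite strand across the VLDLR start, had 0 units for NTC, 42 for shHKDC1 and 4 for shRBBP5. Because the strand setting of the counting is not given, reads of the overlapping stretch cannot be assigned to either gene with certainty. Adding these units to VLDLR gave log2 2.59 for shHKDC1 over NTC.

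The wider pathway was described with 8 lists of 201 other genes, of which 40 had a row and 14 reached a mean of 1 CPM. In shHKDC1 5 of the 14 were called higher than in NTC, 4 lower and 5 neither, with a median log2 ratio of 0.28. The fully named genes as a whole had 8.37% called higher, 23.1% called lower and a median of −0.39. In shRBBP5 0 were higher, 4 lower and 10 neither, with a median of −0.61, against 2.27% called higher, 8.67% lower and a median of −0.20 over all fully named genes. Of the 14, 11 were fully named, and the other 3 were RNF125, F11 and ACSL6. Among those 11, 4 were called higher, 2 lower and 5 neither in shHKDC1, and 0, 3 and 8 in shRBBP5. The filter can be passed on a high level in a single library, so these counts are not set against chance.

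Among receptors, LRP12, a lipoprotein receptor-related protein, was the only measured relative of VLDLR. It stood at 5.71 CPM for NTC, 7.61 for shHKDC1 and 4.68 for shRBBP5, with ratios over NTC of 0.41 [0.13 to 0.69] and −0.29 [−0.56 to −0.0045]. The order of the libraries was that of VLDLR, within a far narrower range. LRP1B and LDLRAD1 were at 0 in every library, and LRP2, SORL1 and LDLRAD4 were below a mean of 1 CPM. LRP8, another substrate of MYLIP, had no row of its own and was not analysed here.

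The list of receptor ligands, chaperone and lipoprotein lipases is broad, and its genes need not be ligands of VLDLR. On it, THBS1, the matrix protein thrombospondin, was at 1.34, 5.24 and 1.94 CPM and was called higher in shHKDC1 but not in shRBBP5. The urokinase receptor PLAUR was called in neither comparison, at 3.04, 4.33 and 2.34 CPM. Coagulation factor F11 was lower in both knockdown libraries, at 2.76, 0.465 and 0.614 CPM.

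Of the proteins that carry receptors inward, DAB2, a clathrin adaptor for the tails of this family, was at 0.850 CPM for NTC, 2.16 for shHKDC1 and 0.564 for shRBBP5. It was called higher in shHKDC1 (log2 1.34 [0.74 to 2.0]). The early endosome tether EEA1 was lower there instead, at 1.97 CPM against 10.8 in NTC, and at 5.40 in shRBBP5. Its shRBBP5 ratio of −0.9993 missed the call, and total-count or upper-quartile scaling took it past. Among ubiquitin ligases, RNF125 was at 1.14, 3.26 and 0.733 CPM and was called higher in shHKDC1. TRIM56 was at 10.9, 12.0 and 5.74 CPM and was called in neither knockdown against NTC, and its small shHKDC1 ratio changed sign with total-count scaling, from 0.14 to −0.13.

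The regulators known to act on the 2 genes could hardly be seen. Of 26 LXR factors and targets besides MYLIP, 7 had a row and 0 reached a mean of 1 CPM, and of 30 genes of the SREBP and cholesterol synthesis list 0 had a row. PPAR and HIF targets were measured as well. HK2, a hexokinase induced by hypoxia, was at 1.69 CPM for NTC, 5.59 for shHKDC1 and 0.840 for shRBBP5, called higher in the first knockdown and, except under a pseudocount of 5 units or DESeq2 size factors, lower in the second. PDK4, which restrains pyruvate oxidation, was at 1.94, 1.12 and 0.439 CPM, called lower in shRBBP5, and lower in shHKDC1 only with total-count scaling. Of the fatty acid activating enzymes, ACSL1 was called in neither knockdown, and ACSL6 was lower in shHKDC1 at 0.377 against 1.23 CPM.

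**Figure D5:**
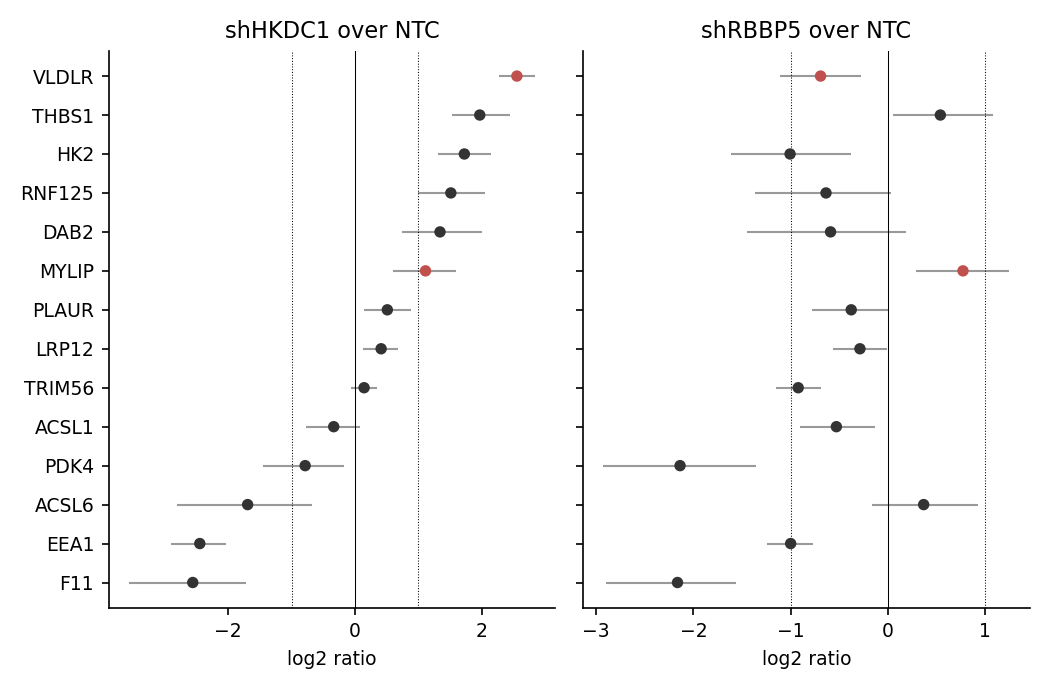
log2 ratios over NTC of 12 measured list genes (black) with VLDLR and MYLIP (red) in shHKDC1 (left) and shRBBP5 (right), ordered by the shHKDC1 ratio, with 95% counting intervals and dotted lines at the 2-fold limits. VLDLR at 2.56 and THBS1 at 1.97 head the left panel, and in the right panel 0 of the list genes shown pass the upper limit.

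The genes most like each of the pair were found by the distance between their shHKDC1 and shRBBP5 log2 ratios over NTC, over 3 libraries. The 5 nearest to VLDLR among 912 genes were CSF2RA, a receptor chain for GM-CSF, at a distance of 0.17, PASD1 at 0.41, the transcription factor ETS1 at 0.45, the forkhead factor FOXQ1 at 0.56 and MN1 at 0.63. CSF2RA stood at 0.719 CPM for NTC, 3.80 for shHKDC1 and 0.464 for shRBBP5. The 5 nearest to MYLIP among 913 genes were CHMP4A, an ESCRT-III subunit, at 0.018, the chemokine XCL1 at 0.081, TSNARE1 at 0.22, the kinase MOK at 0.35 and C19orf38 at 0.35. CHMP4A stood at 0.696, 1.49 and 1.20 CPM. With 3 libraries many genes share a pattern. A gene can also pass the mean CPM filter on a high level in shHKDC1 alone, as CSF2RA did. These names therefore describe a ranking only.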

How the data were processed

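RNA of PLC cells was measured in 1 library each of NTC, shHKDC1 and shRBBP5. Each row of the deposited table gives an estimated count per library, as whole numbers that were scaled neither for library size nor for length. Per the submitters' processing notes, HISAT2 2.2.1, StringTie 1.3.4, DESeq2 1.28.1 and hg19 were used, with no role given. The sources used here give neither the annotation nor the strand setting. Columns were matched to samples by the abbreviations NTC, shHD and shRB.

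RefSeq rows were named by accession in a GRCh38.p14 table, which left 46 unmatched, and were summed per gene. Loci and summed genes entered edgeR 4.0.16 (R 4.3.3) for TMM factors, which were 1.08, 0.894 and 1.03. Other steps used Python 3.11.15, NumPy 2.4.6, SciPy 1.17.1 and pandas 2.3.3. The ratio rule was tested on simulated data. A count test was not fitted because each group has 1 library. At this depth 3 fragments correspond to 0.0685, 0.116 and 0.0752 CPM.

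The genes, lists, motifs and the row-share measure were chosen with earlier results of these data known. Named list genes were all those with a mean of at least 1 CPM, up to 25, of which 2 are counted but not reported here by name, and likeness took the 5 nearest fully named protein-coding genes.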

Additional observations from a re-analysis of the deposited data

Results flagged for a closer look

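VLDLR-AS1, which is outside the 2 genes described, was picked out because it was present in a knockdown library and at 0 in the control. It counted 42 units in shHKDC1, about 10.5 fragments or 0.406 CPM, against 0 in NTC and 4 units in shRBBP5. Set against the limit of 3 fragments that a count of 0 allows in NTC, its point value was at least 5.94-fold higher in shHKDC1. That figure leaves out the counting error in shHKDC1, where the exact 95% Poisson interval runs from 0.186 to 0.712 CPM. Because it overlaps the VLDLR start, whether these units come from VLDLR reads was not tested.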

How the results depend on the processing

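Of 48 recomputed log2 ratios of VLDLR and MYLIP, 41 stayed within their counting interval and 7 did not. Some of the 41 could not move. Taking each unit as 1 read changes only the interval, and MYLIP has 1 row, so its most abundant row alone repeats the main ratio. For VLDLR over NTC in shHKDC1 the ratio was 2.28 with total counts, 3.08 with NM_003383, its most abundant row, alone and 2.15 with NM_001018056 alone. For shRBBP5 over NTC those rows gave 0.72 and −4.67, and for shHKDC1 over shRBBP5 2.35 and 6.82. The call of MYLIP in shHKDC1 ended with total counts (0.84). Settings with NM_001018056 alone or with VLDLR-AS1 added were chosen after seeing the data.

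Counts of calls depended mostly on the CPM filter, which sets how many genes are tested. For fully named genes a minimum of 5 CPM gave 50 calls in shHKDC1, 7 in shRBBP5 and 35 in the direct comparison, and no filter gave 1029, 425 and 1051, where the minimum of 1 CPM gave 319, 111 and 293. For the fully named list genes, 11 of them at 1 CPM, the same settings gave 1, 0 and 2, and without a filter 10 in shHKDC1 and 16 in the direct comparison, where the minimum of 1 CPM gave 6, 3 and 8. In the direct comparison 39.6% of calls were higher, and 26.6% with total counts over the same genes. Taking each unit as 1 read narrowed the MYLIP interval between the knockdowns to 0.12 to 0.56. No paired analysis was possible because each group has 1 library.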
